A study of Mus musculus with 32 samples.

Results

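The comparison described here is Atf3 silencing in adipocytes that received no cholesterol. Its members are 8 of the 32 libraries of the study, 4 with siAtf3 and 4 with a scramble siRNA, all under control treatment, chosen by their labels. The cells were primary white adipocytes generated from murine subcutaneous adipose tissue and kept in DMEM F-12 with serum, and poly(A) RNA was sequenced. The genotype labels read WT for scramble and Atf3 knockdown for siAtf3. The study also silenced Nfe2l1 (siNfe2l1), silenced both genes (siNfe2l1+siAtf3), and loaded the same 4 siRNA groups for 6 h with cholesterol (400 µM, carried by methyl-β-cyclodextrin), and its stated aim was the part of Nfe2l1 and Atf3 in cholesterol homeostasis. Every group holds 4 libraries labelled as biological replicates. The labels name neither the strain, sex or age of the mice, nor the sequence or number of the siRNAs, nor whether the control treatment held the carrier. They do not say whether the replicates are separate cultures or animals, so the p-values below measure the spread between these libraries. An effect of the siAtf3 reagent on other mRNAs cannot be told apart from an effect of losing Atf3.

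ATF3 is a basic leucine zipper protein of the ATF/CREB family that is kept low in resting cells and rises after many kinds of stress, among them amino acid shortage, endoplasmic reticulum stress and inflammatory signals. As a homodimer it represses many promoters, and with JUN-type partners it can activate them, at CRE or AP-1 sites. In the integrated stress response it lies downstream of ATF4, which pairs with C/EBP proteins on composite sites, and in fat and macrophages it has been described as a brake on inflammatory genes.

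Levels are given as CPM, a gene's read count relative to a library size scaled by edgeR's TMM factors, as mean ± SD of 4 libraries. Changes are log2 fold changes ± standard error (SE), siAtf3 against scramble, from edgeR's quasi-likelihood fit, and a gene was called at a Benjamini-Hochberg adjusted p of at most 0.05 over 16984 genes tested. Total counts ran from 24263362 to 26402159 with scramble and from 24725327 to 26304909 with siAtf3. The first principal component of the 16 control-treatment libraries was computed on their 1000 most variable genes and held 35.83% of the variance of these genes. It placed the siAtf3 libraries between 14.86 and 16.78 and the scramble libraries between -13.74 and -11.81. No library stood apart from its group on it. The 20 most abundant genes took 11.96 to 12.25% of the counts with scramble and 10.23 to 10.59% with siAtf3. The TMM factors were higher with siAtf3, 1.079 to 1.095 against 0.9814 to 0.9947.

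Atf3 mRNA (ENSMUSG00000026628, GRCm39 chromosome 1, 190902493 to 190950236, minus strand) checked the labels first. It stood at 24.0, 28.5, 25.6 and 29.1 CPM in the scramble libraries and at 11.0, 9.10, 10.4 and 10.1 CPM in the siAtf3 libraries. The groups did not overlap, and 37.77% of the scramble level was left (26.8 ± 2.43 against 10.1 ± 0.78 CPM, -1.40 ± 0.10, adjusted p = 5.7e-11). Silencing was thus partial, and it acted on a gene that was low before. With cholesterol the same scramble cells held 280.8 to 561 CPM of Atf3. Nfe2l1, the other gene targeted in the study, did not pass the test (486.8 ± 6.02 against 479.6 ± 8.86 CPM, -0.02 ± 0.05, adjusted p = 0.765). Of the protein-coding genes whose log2 CPM averaged 2 or more, 32 fell by more than Atf3 itself.

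**Figure D1:**
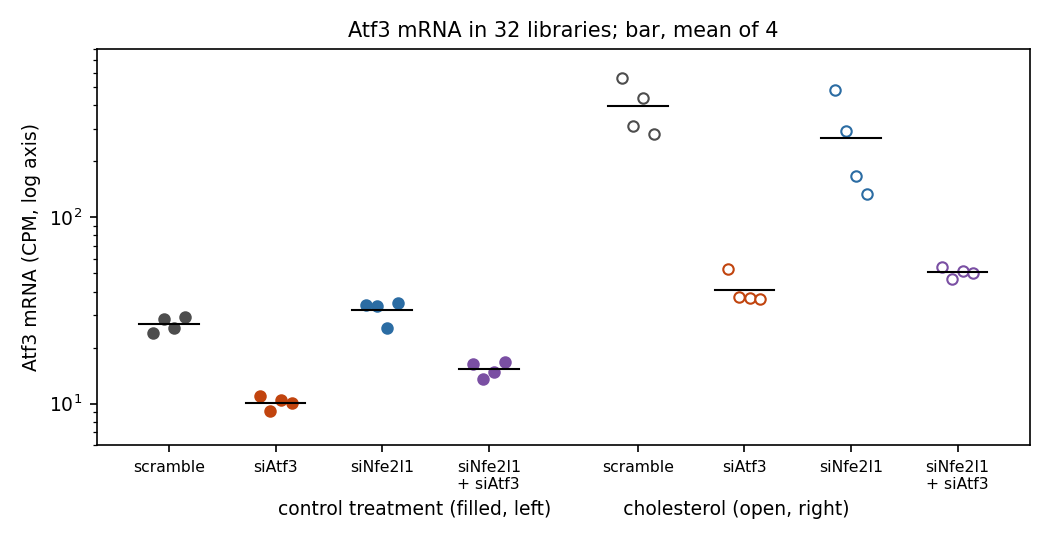
Atf3 mRNA in CPM on a log axis in each of the 32 libraries (points; filled, control treatment; open, cholesterol), with the mean of each group of 4 as a bar. Under control treatment the siAtf3 libraries lie between 9.10 and 11.0 CPM and the scramble libraries between 24.0 and 29.1 CPM. With cholesterol the scramble libraries reach 280.8 to 561 CPM and the siAtf3 libraries 36.3 to 52.7 CPM.

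Of the 16984 genes tested, 7222 were called (42.5%), 3618 higher (21.3%) and 3604 lower (21.2%) with siAtf3. The changes were mostly small: 1501 of the higher and 1165 of the lower genes moved by less than 1.2-fold, and 525 genes (3.09%) moved by more than 2-fold, 214 higher (1.26%) and 311 lower (1.83%). The 4 siAtf3 libraries did not overlap the 4 scramble libraries in 41.3% of genes. The median change of called genes was 0.30 for the higher and -0.36 for the lower, beside 0.01 over all genes tested. Because so many genes were called, the counts for each pathway below are to be read against 42.5%. Without TMM scaling, on library totals alone, all values shift by 0.14 upwards and the split becomes 6652 higher against 2168 lower. Directions below are relative to the middle of all genes.

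**Figure D2:**
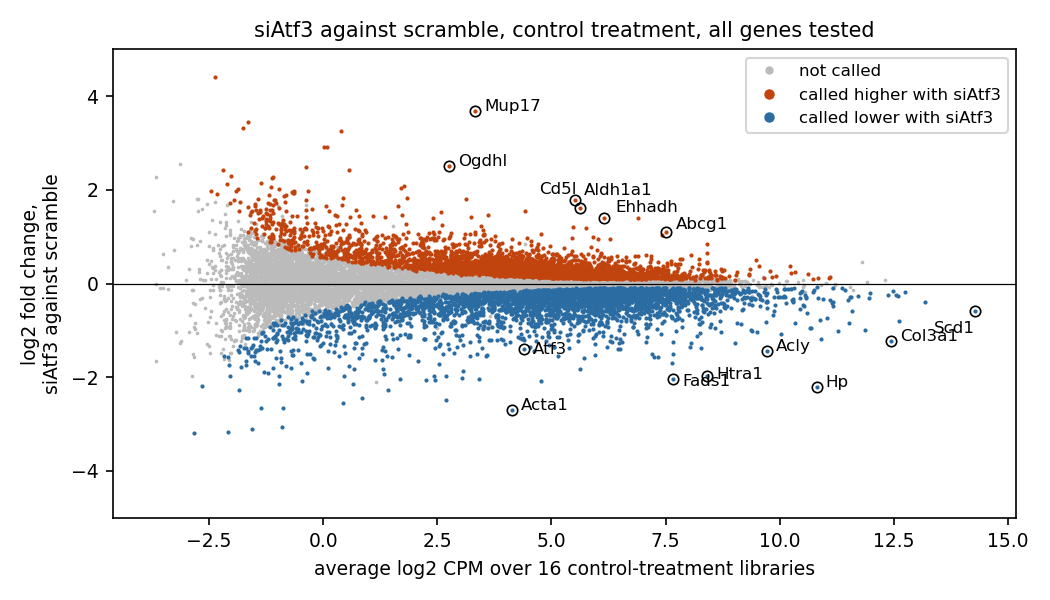
Each gene tested, with its average log2 CPM over the 16 control-treatment libraries (x) and its log2 fold change with siAtf3 against scramble (y); red, called higher; blue, called lower; grey, not called; 1 gene lies outside the axes. Circled genes are named in the text, and the abundant Scd1, Col3a1 and Hp lie on the lower side.

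The lowest fold changes with siAtf3 were found in genes of unlike function. Acta1, the skeletal muscle actin, went from 26.2, 30.01, 27.3 and 21.6 CPM to 3.58, 4.38, 4.33 and 3.90 CPM (-2.70 ± 0.15, adjusted p = 3.54e-10). Hp, which encodes haptoglobin, a plasma protein that binds free haemoglobin, went from 2739, 3114, 2913 and 2724 CPM to 657, 511, 697 and 638 CPM (-2.20 ± 0.11, adjusted p = 2.53e-09). In both genes every siAtf3 library lay far below every scramble library. Atp2b4, a calcium pump of the plasma membrane, fell from 43.4 ± 2.34 to 10.3 ± 0.60 CPM (-2.07 ± 0.07). Htra1, a secreted serine protease, stood at 503, 543, 527 and 508 CPM with scramble and at 131, 120.4, 143 and 134 CPM with siAtf3 (-1.98 ± 0.05, adjusted p = 6.69e-23). Dio2, the deiodinase that activates thyroid hormone, fell from 17.2 ± 0.82 to 4.202 ± 0.78 CPM (-2.03 ± 0.11), and Bmp8b, a secreted factor of the BMP family, from 9.49 ± 0.40 to 2.40 ± 0.37 CPM (-1.98 ± 0.12). Chpt1, which completes phosphatidylcholine from CDP-choline, fell from 287.6 ± 14.2 to 89.3 ± 2.53 CPM (-1.69 ± 0.04). The linker histone gene H1f4 (-2.05) and the ubiquitin enzyme variant gene Ube2v2 (-2.07) were as low, but both have near-identical relatives, and the sources used here do not say how shared reads were counted. The remaining genes among the 15 lowest were Fads1 (described below), Cdsn, Wscd2, Hephl1, Nnat and Cilp, at -2.04 to -1.71.

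Fewer genes rose by more than 2-fold than fell. Ogdhl, related to a subunit of 2-oxoglutarate dehydrogenase, rose from 2.16, 2.55, 2.78 and 2.11 CPM to 13.5, 14.7, 12.6 and 13.5 CPM (2.50 ± 0.11, adjusted p = 5.34e-17). Aldh1a1, which makes retinoic acid from retinal, rose from 21.3, 23.5, 20.6 and 22.1 CPM to 72.4, 79.7, 75.9 and 74.2 CPM (1.79 ± 0.07, adjusted p = 5.69e-17). Neither gene showed overlap between the groups. Trp53inp1, a p53-inducible nuclear protein, rose from 70.2 ± 2.23 to 186 ± 18.2 CPM (1.40 ± 0.10), and Ehhadh, an enzyme of peroxisomal fatty acid oxidation, from 45.8 ± 4.07 to 121 ± 10.6 CPM (1.40 ± 0.07). The set also holds Mb (myoglobin, 1.40), Akr1cl (1.55), Coro6 (1.53), Hs3st6 (1.25) and Dsn1 (1.23). Of the 15 highest genes, 5 are known from macrophages and related cells: Clec4n (1.81), Cd5l (1.61), Clec7a (1.45), Wfdc17 (1.43) and Ccl6 (1.21). The highest value of all, Mup17 (3.67 ± 0.62), rests on 0.67 to 2.16 CPM with scramble and a wide 6.78 to 29.8 CPM with siAtf3, in a family of near-identical major urinary protein genes whose reads may be shared.

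Genes of fatty acid synthesis were lower. Of 21 lipogenesis enzymes and carriers, 14 were called lower and 3 higher (81.0% called), with a median of -0.42. Fads1, the delta-5 desaturase of polyunsaturated fatty acid synthesis, stood at 315, 321, 311 and 304 CPM with scramble and at 76.0, 72.3, 80.1 and 76.8 CPM with siAtf3 (-2.04 ± 0.04, adjusted p = 5.3e-25). Its neighbour and partner in the pathway, Fads2, the delta-6 desaturase, did not pass the test (-0.08 ± 0.04, adjusted p = 0.109). Acly, which cleaves citrate to acetyl-CoA in the cytosol, stood at 1243, 1187, 1187 and 1041 CPM with scramble and at 446, 405, 419 and 454 CPM with siAtf3 (-1.43 ± 0.06, adjusted p = 1.76e-14). Slc25a1, the carrier that exports citrate from mitochondria, fell from 400.9 ± 19.5 to 155 ± 6.49 CPM (-1.37 ± 0.05). No scramble and siAtf3 values overlapped in these genes, apart from Fads2. Fasn, the fatty acid synthase, fell from 4909, 4827, 4352 and 3854 CPM to 2288, 2130.1, 2269.9 and 2277 CPM, with 49.96% left (adjusted p = 2.54e-06).

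Downstream of the synthase, the elongase Elovl6 fell from 101 ± 7.63 to 45.2 ± 3.25 CPM (-1.16 ± 0.06), and the low Elovl3 from 3.38 ± 0.39 to 0.88 ± 0.33 CPM (-1.93 ± 0.20). Scd1, the stearoyl-CoA desaturase and a highly abundant mRNA of these cells, went from 23812, 23854, 24067 and 22871 CPM to 16616, 14761, 14576 and 16644 CPM (-0.60 ± 0.05, adjusted p = 5.46e-10), and Scd2 from 1965 ± 176 to 1024 ± 30.2 CPM (-0.94 ± 0.06). The Scd1 groups did not overlap. Acaca, the acetyl-CoA carboxylase, was lowered less, from 641 ± 50.7 to 479 ± 21.8 CPM (-0.42 ± 0.07), as were Me1, the malic enzyme that supplies NADPH (-0.58 ± 0.06), and Acss2, which makes acetyl-CoA from acetate (-0.52 ± 0.06). Of 8 NADPH-supplying enzymes 5 were lower (3 on library totals) and 1 higher. The 3 lipogenesis genes called higher were Pck1, the glyceroneogenic PEP carboxykinase (0.63 ± 0.15), Mcat (0.21) and Elovl1 (0.12), an elongase of very long chains whose call was lost over all 32 libraries (adjusted p = 0.0688) and with no filter on low counts (0.125).

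**Figure D3:**
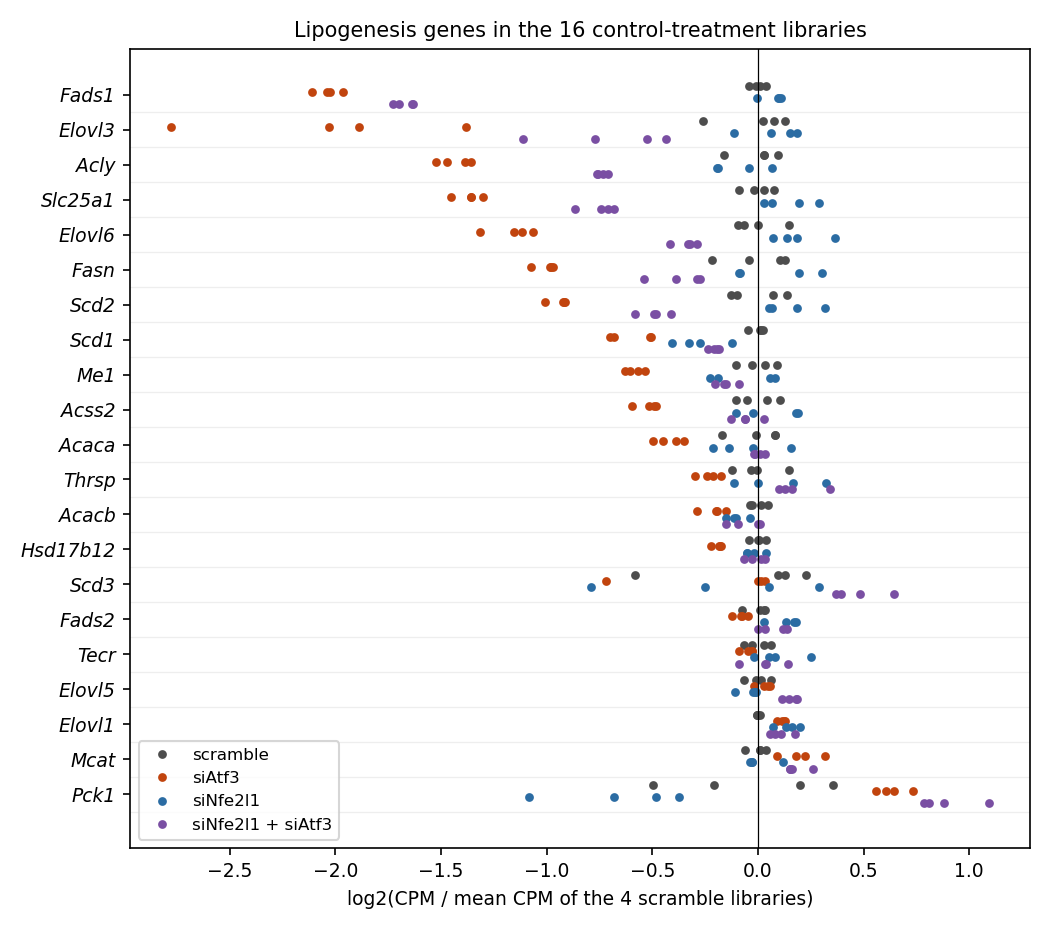
Lipogenesis genes in the 16 control-treatment libraries, each point 1 library, as log2 of its CPM over the mean of the 4 scramble libraries; colours give the siRNA. For Acly, Fasn and Scd1 all 4 siAtf3 libraries lie left of all 4 scramble libraries.

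The transcription factors that drive these enzymes moved little. Srebf1, the gene of SREBP1, stood at 576 ± 37.5 CPM with scramble and 493 ± 23.1 CPM with siAtf3 (-0.22 ± 0.05, adjusted p = 0.000413), but its call was lost with the spread estimated over all 32 libraries (adjusted p = 0.167) and on library totals (0.119). Mlxipl, the gene of ChREBP, was slightly higher (140 ± 4.14 against 155 ± 5.70 CPM, 0.15 ± 0.04, adjusted p = 0.00535), and its call too was lost over all 32 libraries (0.271). Insig1, which retains SREBP in the endoplasmic reticulum and is itself an SREBP target, fell more, from 493.6, 463, 472 and 466 CPM to 239, 248, 245 and 254 CPM (-0.94 ± 0.04, adjusted p = 4.23e-18). Of 14 regulators listed, 8 were called lower and 4 higher, with a median of -0.17. Over all 32 libraries these were 5 and 2, and on library totals the lower ones were 4.

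Among enzymes that build triglyceride or take up fatty acids, 12 of 23 were called lower and 4 higher (69.6% called, median -0.17). On library totals the higher ones were 9, and the median became -0.04. Gpam, which adds the first acyl chain to glycerol 3-phosphate, fell from 982 ± 49.8 to 478 ± 25.4 CPM (-1.04 ± 0.05). Gpd1, which makes glycerol 3-phosphate and is counted with the adipocyte genes below, went from 743, 685, 697 and 668 CPM to 286, 263, 298 and 305 CPM (-1.28 ± 0.05, adjusted p = 1.07e-18), and Lpl, the lipase that frees fatty acids from lipoproteins, from 7867 ± 106 to 4512 ± 110 CPM (-0.80 ± 0.04). Dgat1, an enzyme of the last acylation, fell by 0.70 ± 0.04, while Dgat2 (-0.06) did not pass. Among 20 lipid droplet and lipolysis genes, 12 were called lower and 5 higher. On library totals 7 were lower and 8 higher, and their median of -0.16 became -0.02. The brakes on lipolysis Adora1 (-1.01 ± 0.07) and Hcar2 (-0.94) and the triglyceride-associated Pnpla3 (-0.95 ± 0.09) were lower. Coat proteins went both ways, Plin4 lower (1517 ± 25.3 against 1035 ± 55.4 CPM, -0.55 ± 0.04) and Plin2 higher (1063 ± 71.1 against 1374 ± 28.8 CPM, 0.37 ± 0.04), and the receptor gene Adrb3 was higher (241 ± 8.94 against 347 ± 14.4 CPM, 0.52 ± 0.04).

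In mitochondrial pyruvate use and the citrate cycle, 11 of 24 genes were called lower and 3 higher (58.3% called), and the median of -0.08 turned to 0.06 on library totals. Mpc1, a subunit of the pyruvate carrier, went from 43.3, 41.8, 38.2 and 41.4 CPM to 19.0, 18.9, 21.3 and 20.3 CPM (-1.05 ± 0.08, adjusted p = 3.39e-11), while its partner subunit Mpc2 did not pass (0.07). Dld, the E3 subunit shared by pyruvate and 2-oxoglutarate dehydrogenase, fell from 279.9 ± 4.90 to 169 ± 4.67 CPM (-0.73 ± 0.04), and Pdha1, the E1 alpha subunit, from 449 ± 5.06 to 329 ± 7.03 CPM (-0.45 ± 0.03). The other pyruvate dehydrogenase genes Dlat (0.13) and Pdhb (0.15) were called slightly higher. Of 20 fatty acid oxidation genes 7 were called lower and 4 higher (4 and 12 on library totals). Cpt2, the inner membrane carnitine transferase, fell from 239 ± 6.22 to 114 ± 4.96 CPM (-1.07 ± 0.04). Nuclear genes of the respiratory chain were called in 9 of 32 (28.1%, beside 42.5% of all genes), 4 higher and 5 lower. The higher ones were 2 without scramble replicate 3 or without siAtf3 replicate 3, and 18 on library totals. Of 13 mitochondrially encoded mRNAs 8 were called lower (4 on library totals), with a median of -0.28. With siNfe2l1, siAtf3 gave 1 higher and 1 lower (median 0.04), beside 15.6% and 17.5% of all genes. In cholesterol it gave 2 higher and 0 lower (median 0.13), beside 23% and 27.4%.

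Glycolysis gave 7 higher and 2 lower of 19 (47.4% called). The lower ones were 0 without scramble replicate 2, scramble replicate 3 or siAtf3 replicate 2, and 4 without scramble replicate 4. The 2 with the largest change were Pfkfb1, which makes the activator fructose 2,6-bisphosphate (32.5 ± 2.09 against 73.8 ± 2.81 CPM, 1.18 ± 0.05), and Aldoc, an aldolase (17.2 ± 0.66 against 35.6 ± 1.18 CPM, 1.05 ± 0.06). Among 20 genes of insulin signalling and glucose uptake, 9 were called lower and 2 higher, and their median of -0.11 became 0.03 on library totals. The lower ones include Pik3r1, the regulatory subunit of PI3-kinase (269 ± 11.7 against 169.7 ± 4.81 CPM, -0.67 ± 0.04), Pdpk1, which phosphorylates AKT (-0.73 ± 0.06), and Enpp1, an inhibitor of the insulin receptor (-0.78 ± 0.07). Slc2a4, the insulin-responsive glucose transporter, did not pass (117 ± 4.36 against 111 ± 1.56 CPM, -0.08 ± 0.05, adjusted p = 0.244).

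Many products of mature adipocytes fell, while their main regulator did not pass the test. Pparg, the master regulator of fat cell differentiation, stood at 235, 223, 229 and 225 CPM with scramble and at 224, 222, 231 and 221 CPM with siAtf3 (-0.02 ± 0.04, adjusted p = 0.647). These values overlapped, and on library totals alone Pparg was called higher (0.11, adjusted p = 0.0102). Cebpa, its partner, was slightly higher (882 ± 42.9 against 976 ± 35.8 CPM, 0.15 ± 0.04, adjusted p = 0.00429), a call lost over all 32 libraries (0.102). Fabp4 (0.07) and Cd36 (0.08), which bind and take up fatty acids, did not pass, but both were called higher on library totals (0.21 and 0.22), and Cd36 also by DESeq2 (adjusted p = 0.0498), by limma-voom (0.0475), in the fit on the 8 libraries alone (0.0387), without scramble replicate 4 (0.0303) and without siAtf3 replicate 3 (0.0323). Of the 24 adipocyte genes 14 were called lower and 4 higher (2 over all 32 libraries, 8 on library totals), with a median of -0.36 (75.0% called). The hormone gene Lep went from 16.01, 15.01, 9.72 and 9.31 CPM to 4.39, 5.39, 4.92 and 4.46 CPM (-1.38 ± 0.22, adjusted p = 0.000182), and all siAtf3 libraries lay below the scramble libraries, which were spread widely. Adiponectin, Adipoq, fell from 925 ± 13.0 to 715 ± 27.4 CPM (-0.37 ± 0.04), the carbonic anhydrase Car3 from 3807 ± 82.7 to 2114 ± 106 CPM (-0.85 ± 0.07) and adipsin, Cfd, from 1052 ± 14.4 to 661 ± 57.0 CPM (-0.67 ± 0.07). Of the 15 adipokines and stress hormones tested, 10 were called lower, and Gdf15 alone higher (11.6 ± 1.24 against 15.7 ± 1.03 CPM, 0.43 ± 0.08, adjusted p = 7.09e-05, but 0.201 over all 32 libraries). Without scramble replicate 1 or 2 the higher ones were 2. In bulk RNA, fewer cells of a type and less RNA per cell cannot be told apart.

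Of 16 genes of heat production 8 were called lower and 2, one of them Adrb3, higher, and their median of -0.10 became 0.04 on library totals. Their summed level was 609 to 628 CPM with scramble and 666 to 698 CPM with siAtf3, so the sum was higher although more members were lower. The rise of Adrb3 alone, given above, was larger than that of the sum. Besides Dio2, Ppargc1a, the coactivator of mitochondrial genes, fell from 11.5, 10.8, 11.8 and 11.3 CPM to 4.88, 4.38, 3.87 and 4.73 CPM (-1.35 ± 0.09, adjusted p = 1.4e-12), and the brown fat regulator Prdm16 fell from 33.4 ± 1.39 to 20.6 ± 1.65 CPM (-0.70 ± 0.06). The uncoupling protein gene Ucp1 fell from 5.14 ± 0.37 to 3.31 ± 0.96 CPM (-0.64 ± 0.16, adjusted p = 0.00157).

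Sterol genes fell mildly. Of 26 genes of mevalonate and sterol synthesis, 15 were called lower and 2 higher (65.4% called, median -0.19). Acat2, the cytosolic thiolase that starts the pathway, fell from 121 ± 4.50 to 71.2 ± 3.14 CPM (-0.76 ± 0.05). Among 16 LXR targets and sterol efflux genes, 10 were lower and 3 higher, with a median of -0.27. The exporters of cholesterol parted. Abcg1 rose from 113, 122, 128 and 129 CPM to 266, 271, 250.4 and 274 CPM (1.11 ± 0.05, adjusted p = 3.57e-17), and no libraries overlapped. Abca1 fell from 447 ± 14.2 to 360.3 ± 30.7 CPM (-0.31 ± 0.09, adjusted p = 0.0108), a call lost on library totals (0.124). Mylip, a ubiquitin ligase induced by LXR, rose from 27.6 ± 0.33 to 42.7 ± 1.48 CPM (0.63 ± 0.05), and Pltp, which transfers phospholipids, fell by 0.65 ± 0.05. Ch25h, which makes 25-hydroxycholesterol and has been reported as an ATF3 target, stood at 11.4, 13.9, 13.7 and 13.5 CPM with scramble and at 10.6, 10.6, 12.7 and 10.2 CPM with siAtf3. The values overlapped, and the call (-0.25 ± 0.08, adjusted p = 0.0147) was lost without scramble replicate 2 (0.0509), without siAtf3 replicate 4 (0.0545), over all 32 libraries (0.072) and on library totals (0.261).

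Genes of the integrated stress response, in which Atf3 takes part, were mostly lower. Of 22 genes 16 were called lower and 3 higher (86.4% called, median -0.31), and the higher ones were 1 over all 32 libraries. To show which of them hold 1 exact word of the composite site near a start, promoters of RefSeq genes were searched on both strands. Each ran from 250 bases before to 50 after a start (build GRCm38.p6). Other forms of the site, and sites farther away, are missed by this search. The words were TTGCATCA for ATF4-C/EBP, TGACGTCA for CRE and TGANTCA for AP-1. All promoter windows of that length held these in 0.895%, 1.79% and 7.81% of cases. Atf3's own promoter holds the composite word, and 20 of the 22 genes had a promoter in the table, of which 4 (20%) held it in at least 1 of their windows. The CRE word and the AP-1 word were each found in 1 of the 20 (5%). These shares count genes, and those over all promoters count windows, so they are not on the same footing. Each 30-base stretch below runs 5′ to 3′ on the gene's strand with the word in capitals. The Slc7a11 window holds the word on both strands, and the stretch nearer the start is shown.
Atf3, chromosome 1, 191183425 to 191183454, minus strand: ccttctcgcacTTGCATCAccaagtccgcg
Chac1, chromosome 2, 119351038 to 119351067, plus strand: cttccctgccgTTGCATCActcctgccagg
Nupr1, chromosome 7, 126625562 to 126625591, minus strand: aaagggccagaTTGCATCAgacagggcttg
Slc7a11, chromosome 3, 50443642 to 50443671, minus strand: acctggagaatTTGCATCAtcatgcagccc
Vldlr, chromosome 19, 27216809 to 27216838, plus strand: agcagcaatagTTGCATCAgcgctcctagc
Ppp1r15a with the CRE word, chromosome 7, 45526262 to 45526291, minus strand: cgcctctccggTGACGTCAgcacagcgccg
Ddit3 with the AP-1 word, chromosome 10, 127290543 to 127290572, plus strand: cgcgcgcaTGACTCActcacctcctccgcg

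The genes that share the composite word did not move together. Chac1, which breaks down glutathione, fell from 13.7 ± 0.65 to 11.1 ± 0.59 CPM (-0.31 ± 0.07), a call lost over all 32 libraries (adjusted p = 0.32) and on library totals (0.0618), and Nupr1, a stress-induced chromatin protein, from 27.6 ± 1.23 to 21.2 ± 1.44 CPM (-0.38 ± 0.06). Slc7a11, the cystine importer, rose from 16.2 ± 1.13 to 21.7 ± 2.08 CPM (0.42 ± 0.08), and Vldlr, a lipoprotein receptor, was called slightly higher (0.13 ± 0.05, adjusted p = 0.0435) with overlapping groups, a call that DESeq2 (0.0631), limma-voom (0.0543) and 7 of the 8 fits without 1 library did not make. Ppp1r15a, which restores translation after stress, was slightly lower (-0.14 ± 0.05), a call lost over all 32 libraries (adjusted p = 0.655), on library totals (0.945) and without siAtf3 replicate 2 (0.0713). Outside these, the larger changes lay in amino acid supply. Slc7a5, the transporter of large neutral amino acids, stood at 93.2, 92.3, 104 and 101 CPM with scramble and at 46.6, 50.2, 45.3 and 50.3 CPM with siAtf3 (-1.02 ± 0.06, adjusted p = 1.43e-14), with no overlap. Its heavy chain Slc3a2 fell by 0.37 ± 0.04, Psat1 of serine synthesis fell from 97.2 ± 5.82 to 58.2 ± 2.83 CPM (-0.74 ± 0.06), and asparagine synthetase, Asns, from 105 ± 1.69 to 75.5 ± 1.00 CPM (-0.47 ± 0.04). Atf4 itself fell from 201 ± 1.64 to 157 ± 1.89 CPM (-0.36 ± 0.04), and Ddit3, which encodes CHOP, from 30.9 ± 1.76 to 24.8 ± 0.38 CPM (-0.32 ± 0.06, adjusted p = 5.64e-05, but 0.205 over all 32 libraries). Trib3, another gene of the pathway, did not pass (52.7 ± 2.41 against 52.0 ± 1.98 CPM, -0.02 ± 0.04, adjusted p = 0.732), and was called higher on library totals (0.0261). The cytosolic aminoacyl-tRNA synthetases, also ATF4-dependent in part, were called in 8 of 20 (40.0%, 3 higher and 5 lower). On library totals 11 were higher and 1 lower, and their median of -0.04 became 0.10.

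Among 25 genes of Atf3 and its ATF, CREB and C/EBP partners, 11 were called lower and 2 higher, and their median of -0.07 became 0.06 on library totals. Creb3l3, a membrane-bound factor known from liver, fell from 4.84 ± 1.03 to 2.57 ± 0.33 CPM (-0.91 ± 0.15). Batf3, which lies 61350 bases from Atf3 on chromosome 1, was called higher at a low level (0.46 to 0.63 against 1.05 to 1.16 CPM, 1.10 ± 0.26, adjusted p = 0.00098). Of the 12 AP-1 genes of the Fos and Jun families, 4 were lower (2 over all 32 libraries) and 2 higher. Jund, the Jun family member that restrains growth, stood at 52.99, 63.2, 58.8 and 54.0 CPM with scramble and at 34.3, 35.3, 36.9 and 36.0 CPM with siAtf3 (-0.69 ± 0.06, adjusted p = 4.24e-10). Jun fell from 119 ± 12.6 to 93.5 ± 2.62 CPM (-0.35 ± 0.06, adjusted p = 1.5e-05, but 0.183 over all 32 libraries), and Fosl1 by 0.60 ± 0.10. Fos did not pass (-0.14 ± 0.10, adjusted p = 0.256). Of 24 immediate early and feedback genes, among them the Egr, Nr4a, Ier and Dusp families, 33.3% were called, beside 42.5% of all genes.

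Genes that the literature reports as ATF3 targets went in both directions: of 23 tested, 10 were lower and 9 higher (6 and 4 over all 32 libraries), and their median of -0.04 became 0.10 on library totals. The list was written from general knowledge and holds activated and repressed targets of several tissues. Gadd45b, a stress sensor, fell from 47.9, 51.5, 54.9 and 54.7 CPM to 25.5, 26.5, 29.05 and 25.7 CPM (-0.97 ± 0.05, adjusted p = 7.71e-15). Among the chemokines and cytokines on it, Ccl4 was higher (0.94 ± 0.19, adjusted p = 0.000213, no overlap) and Il6 was low and slightly lower (6.28 ± 1.53 against 4.63 ± 0.43 CPM, -0.44 ± 0.14, adjusted p = 0.0115), a call lost without scramble replicate 2 (0.101), over all 32 libraries (0.182) and on library totals (0.0676).

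Inflammatory genes were called in both directions. Of 28 chemokines and cytokines tested, 4 were called higher and 7 lower (39.3% called, median 0.06). On library totals the lower ones were 4. Ccl2, the main monocyte attractant, stood at 38.8, 81.0, 44.6 and 55.9 CPM with scramble and at 40.9, 35.5, 46.5 and 40.6 CPM with siAtf3, and did not pass (-0.43 ± 0.21, adjusted p = 0.116). Without scramble replicate 1 it passed as lower (0.0395). The 4 higher genes were Ccl3 (1.37 ± 0.13 against 4.34 ± 0.61 CPM, 1.66 ± 0.15), Ccl4 (0.94 ± 0.19), Ccl9 (32.2 ± 3.42 against 50.2 ± 2.13 CPM, 0.64 ± 0.08) and Ccl11 (0.31). The lower ones include the cytokine gene Lif (-0.83 ± 0.10) and Cxcl12, which holds progenitors in their niche (477 ± 26.8 against 361 ± 10.4 CPM, -0.40 ± 0.04). Of 19 NF-kB subunits and feedback genes, 7 were lower (4 over all 32 libraries) and 3 higher, with a median of -0.12 that became 0.02 on library totals. Tnfaip2 fell from 238 ± 7.76 to 143 ± 3.23 CPM (-0.73 ± 0.04), and Ptgs2, the inducible cyclooxygenase, from 22.9 ± 1.96 to 13.7 ± 1.69 CPM (-0.74 ± 0.16). Interferon response genes were called in 10 of 27 (37.0%), 7 lower and 3 higher. The lower ones were 4 without siAtf3 replicate 1 and 3 without siAtf3 replicate 2 or on library totals.

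Acute-phase genes fell more than those of any other list with at least 6 genes tested, by the median (-0.47, with 9 of 12 lower and 1 higher). Next to Hp, Lcn2, which binds bacterial iron carriers, went from 14.0, 16.2, 13.4 and 14.0 CPM to 5.23, 4.62, 5.17 and 5.29 CPM (-1.50 ± 0.09, adjusted p = 1.3e-13). The central complement component C3 fell from 2023 ± 90.0 to 1053 ± 81.9 CPM (-0.94 ± 0.05) and the protease inhibitor Serpina3n from 211 ± 16.04 to 121 ± 8.49 CPM (-0.80 ± 0.06). In each of these the groups did not overlap. Of 18 complement genes 9 were lower, and the 3 higher ones were C1qa, C1qb and C1qc, the subunits of C1q, which macrophages make. The class I antigen presentation genes Tap2 (-0.52 ± 0.05) and Tapbp (-0.46 ± 0.04) were lower as well.

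Macrophage markers moved the other way. Of 16, 9 were called higher and 1 lower (62.5% called), with a median of 0.28, and their summed level was 298.8 to 347.3 CPM with scramble and 413.8 to 514.5 CPM with siAtf3. Leaving out 1 library at a time gave 6 to 10 higher. The rise did not recur as a list elsewhere. With siNfe2l1, siAtf3 gave 3 higher and 1 lower (median 0.06), beside 15.6% and 17.5% of all genes. In cholesterol it gave 3 higher and 4 lower (median -0.07), beside 23% and 27.4% of all genes. The difference by cholesterol was called lower for 5, beside 9.13% of all genes. Lyz2, the macrophage lysozyme, went from 83.7, 92.6, 90.7 and 98.3 CPM to 205, 151, 203 and 195 CPM (1.04 ± 0.15, adjusted p = 7.61e-05). Mpeg1, which encodes perforin-2, rose from 71.7 ± 4.92 to 101 ± 2.81 CPM (0.49 ± 0.05) and C1qb from 19.9 ± 1.77 to 30.9 ± 2.20 CPM (0.64 ± 0.11). The defining markers were not uniform. Csf1r, the receptor for the macrophage growth factor, fell from 20.6 ± 1.80 to 14.3 ± 1.68 CPM (-0.53 ± 0.10, adjusted p = 0.000124), and Adgre1, which encodes F4/80, did not pass (11.99 ± 1.45 against 13.6 ± 1.16 CPM, 0.18 ± 0.11, adjusted p = 0.192; 0.0156 on library totals). Lyz2, C1qb, Cd5l, Clec4n, Clec7a and Ccl6 are among the macrophage-related genes that rose, and the part of macrophage number in these rises was not tested. Of the 9 lymphocyte markers, 1 was measured well enough to be tested, and of 9 mesothelial and epithelial markers 2.

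Genes of the extracellular matrix were lower almost without exception. Of 26 collagens and matrix genes 23 were called lower and 0 higher (88.5% called, median -0.29); Col8a1, Eln and Lum did not pass, although Col8a1 passed as lower with DESeq2 (adjusted p = 0.0175), with limma-voom (0.0219) and without siAtf3 replicate 2 (-0.38, 0.000854). Col3a1, the collagen of reticular fibres, stood at 7203, 7526, 7459 and 7143 CPM with scramble and at 3091, 3033, 3159 and 3177 CPM with siAtf3, with 42.48% left (-1.24 ± 0.03, adjusted p = 1.19e-21). Fbn1, fibrillin-1 of elastic microfibrils, fell from 856 ± 7.78 to 422 ± 24.2 CPM (-1.02 ± 0.05), Tnc, tenascin C, from 1608 ± 68.9 to 899.6 ± 50.6 CPM (-0.84 ± 0.08), and Col1a1, the main fibrillar collagen, from 9861 ± 358 to 7522 ± 178 CPM (-0.39 ± 0.04). The groups did not overlap in these. Among matrix proteases and their inhibitors 12 of 21 were lower and 2 higher (1 without scramble replicate 2 or siAtf3 replicate 4). On library totals the lower ones were 7. Timp3, the matrix-bound inhibitor of metalloproteinases, stood at 219, 214, 227 and 216 CPM with scramble and at 80.6, 77.2, 67.0 and 70.9 CPM with siAtf3 (-1.57 ± 0.08, adjusted p = 1.01e-10).

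Of 24 TGF-beta and matrix regulators 12 were called lower and 4 higher (66.7% called). The higher ones were 2 without siAtf3 replicate 3, and the median of -0.14 became 0.00 on library totals. Inhba, the subunit of activin A, fell from 133 ± 6.23 to 58.5 ± 3.39 CPM (-1.19 ± 0.12), Ccn2, connective tissue growth factor, from 333 ± 5.92 to 216 ± 33.1 CPM (-0.63 ± 0.09), and Tgfb1 from 165 ± 7.89 to 117 ± 5.78 CPM (-0.50 ± 0.05). Bmp2 rose from 6.44 ± 0.77 to 10.6 ± 1.38 CPM (0.72 ± 0.10).

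Markers of other cells in the culture moved beside the matrix genes. Of 15 fibroblast and precursor markers, some of which are collagens of the list above, 11 were lower and 1 higher, and their summed level was 27186 to 28496 CPM with scramble and 18970 to 19713 CPM with siAtf3. Ly6a fell from 989.8 ± 40.9 to 558 ± 31.3 CPM (-0.83 ± 0.05), while Pdgfra, the receptor that marks fat cell precursors, was higher (305 ± 8.33 against 361 ± 16.1 CPM, 0.24 ± 0.06). Of 11 endothelial markers 7 were lower (4 over all 32 libraries, 2 on library totals) and 0 higher, at sums of 762.8 to 817.1 CPM against 632.4 to 653.1 CPM. Their cadherin gene Cdh5 fell from 197 ± 7.93 to 133 ± 3.76 CPM (-0.57 ± 0.04) and Pecam1 from 161 ± 6.87 to 118 ± 2.64 CPM (-0.46 ± 0.04). Smooth muscle and pericyte markers gave 4 lower and 1 higher of 10, at overlapping sums of 673.8 to 741.6 and 606.8 to 700.1 CPM. The part of these cell types in the fall of matrix genes was not tested.

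Chaperone genes were lower in 2 compartments. Of 21 endoplasmic reticulum chaperones and unfolded protein response genes, 15 were called lower and 1 higher (76.2% called, median -0.19), and 7 were lower on library totals. Manf, a secreted stress-induced protein, stood at 90.6, 90.1, 89.7 and 95.2 CPM with scramble and at 63.1, 60.0, 62.1 and 63.4 CPM with siAtf3 (-0.56 ± 0.04, adjusted p = 9.67e-12). Calr, calreticulin, fell from 859 ± 23.6 to 670.4 ± 14.7 CPM (-0.36 ± 0.03), and Hspa5, the main chaperone BiP, from 1149.6 ± 42.1 to 962 ± 4.38 CPM (-0.26 ± 0.03). The exception was Dnajb9, which dampens IRE1 signalling (71.5 ± 4.13 against 91.0 ± 4.35 CPM, 0.35 ± 0.05). Among 16 heat shock genes 12 were lower and 0 higher (median -0.15), but 5 were lower over all 32 libraries and 6 on library totals. Hsf1, their transcription factor, fell from 36.8 ± 0.64 to 24.6 ± 1.79 CPM (-0.58 ± 0.06) and Hsph1 from 87.4 ± 5.90 to 62.6 ± 3.32 CPM (-0.48 ± 0.05).

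Proteasome subunits, the genes that Nfe2l1 controls, split into 11 higher and 6 lower of 32 (53.1% called, median 0.07), and the higher ones were 22 on library totals. Psma1 (204 ± 2.41 against 271 ± 7.17 CPM, 0.41 ± 0.04) and Psmd3 (185 ± 7.43 against 138 ± 2.73 CPM, -0.42 ± 0.04) marked the ends. Antioxidant genes of the NFE2L2 pathway also split, 10 higher and 6 lower of 22, with Nqo1, a quinone reductase (17.7 ± 1.12 against 25.5 ± 1.47 CPM, 0.53 ± 0.07), and Gclm of glutathione synthesis (0.41 ± 0.04) among the higher. Of 6 metallothionein and zinc genes 3 were lower and 0 higher (1 without scramble replicate 3 or siAtf3 replicate 3). Mt1, a zinc-binding metallothionein, fell from 375 ± 40.7 to 221 ± 29.4 CPM (-0.76 ± 0.12). Of 20 p53 targets and cell death genes 9 were higher and 4 lower, with a median of 0.13. Cdkn1a, the cell cycle inhibitor p21, stood at 290, 288, 291 and 299 CPM with scramble and at 399, 402, 400.3 and 399 CPM with siAtf3 (0.46 ± 0.04, adjusted p = 2.08e-10), without overlap. Bcl2l11, which encodes the death-promoting BIM, rose from 11.4 ± 0.27 to 16.7 ± 0.39 CPM (0.55 ± 0.07).

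Of 28 cell cycle genes 10 were lower and 7 higher. Mki67, a marker of dividing cells, fell from 35.6 ± 0.89 to 24.0 ± 3.75 CPM (-0.57 ± 0.11), whereas Ccne1, the cyclin of entry into S phase, rose from 19.4 ± 1.46 to 31.3 ± 0.44 CPM (0.68 ± 0.06). Of 19 circadian genes 11 were lower (7 over all 32 libraries or on library totals) and 3 higher (73.7% called, median -0.17). The clock output factor Hlf fell from 6.39 ± 0.75 to 2.03 ± 0.47 CPM (-1.65 ± 0.14), the repressor Per2 from 12.2, 10.6, 10.3 and 10.6 CPM to 4.60, 4.52, 4.11 and 4.502 CPM (-1.30 ± 0.10, adjusted p = 2.22e-11), and Clock by 0.48 ± 0.08. Time of day at harvest is not in the labels. Of 22 lysosome and autophagy genes 10 were lower and 4 higher, with a median of -0.05 that became 0.08 on library totals. The protease gene Ctsb stood at 3202, 3268, 3252 and 3199 CPM with scramble and at 1646, 1480, 1680 and 1626 CPM with siAtf3 (-1.01 ± 0.04, adjusted p = 1.12e-18), while Lipa, the acid lipase that frees cholesterol from its esters, rose from 173 ± 9.44 to 231 ± 4.42 CPM (0.42 ± 0.04). Retinoid genes divided around Aldh1a1: 9 of 20 were lower, among them its relative Aldh1a3 (-0.84), and 6 were higher.

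**Figure D4:**
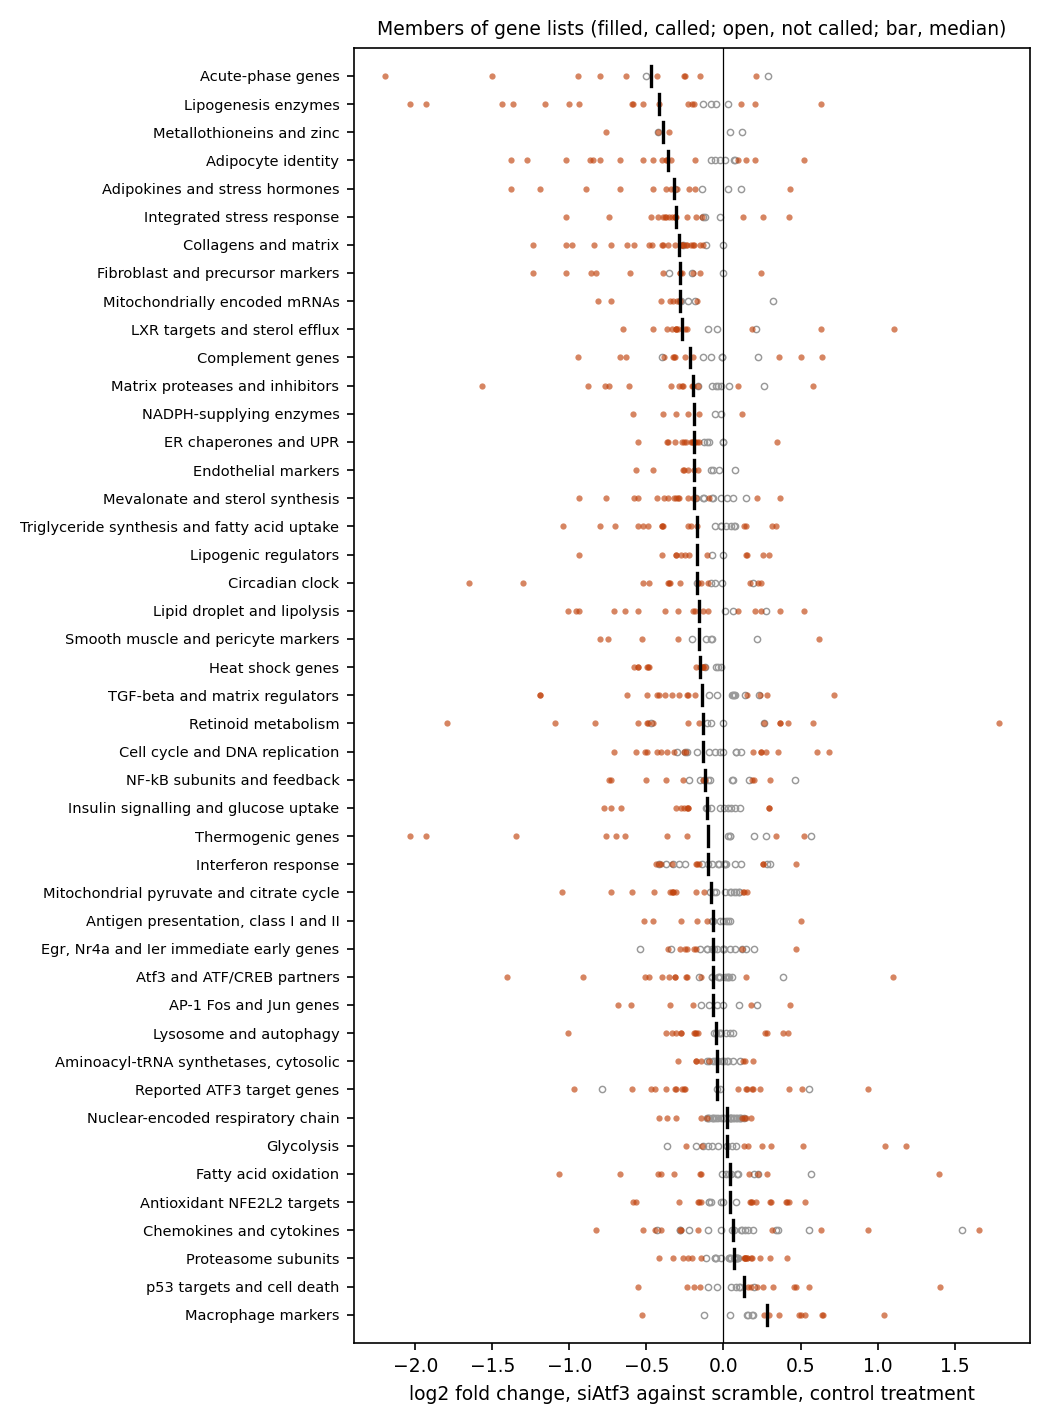
Log2 fold changes of the members of each list with at least 6 genes tested (x), 1 row a list, with called genes filled, genes that did not pass open, and the list's median as a bar. Acute-phase, lipogenesis and metallothionein lists have the lowest medians and macrophage markers the highest.

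The same siRNA was also added to siNfe2l1, in 8 other control-treatment libraries that share none with the comparison above. There Atf3 fell from 31.8 ± 4.33 to 15.3 ± 1.41 CPM (-1.05 ± 0.09), and 5623 genes were called (33.1%), 2647 higher and 2976 lower. Of the 3604 genes lower with siAtf3 alone, 2387 (66.2%) were called lower here too, beside 17.5% of all genes, and 24 were called higher. Of the 3618 higher ones 1974 (54.6%) were called higher again, beside 15.6% of all genes, and 14 lower. Pearson's r of the log2 fold changes was 0.851 across 11415 genes whose log2 CPM averaged 2 or more, which is a description, since genes are not independent and both comparisons used the same reagent. Nfe2l1, which did not move with siAtf3 alone, was higher when siAtf3 joined siNfe2l1 (0.63 ± 0.05), and this difference was called (0.65 ± 0.07, adjusted p = 5.77e-06). Nfe2l1 is the target of siNfe2l1, so more of the target mRNA was left where siAtf3 was added.

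The difference between both effects was also tested, with the libraries of the first comparison in it, and called for 747 genes (4.4%), 466 with the higher value in the presence of siNfe2l1 (2.74%) and 281 with the lower (1.65%). Of the 21 lipogenesis genes 13 were called in that test, all with the higher value. Acly fell by 0.66 ± 0.06 with siNfe2l1 instead of 1.43 ± 0.06 (difference 0.78 ± 0.08, adjusted p = 6.83e-06). Scd1 already stood lower with siNfe2l1 alone, at 17845 to 21718 CPM, beside 22871 to 24067 CPM with scramble. With both siRNAs it stood at 20058 to 20818 CPM, still below every scramble library. Lowered by siAtf3 alone, Scd1 did not pass in the presence of siNfe2l1 (0.07 ± 0.05), and the difference was called (0.67 ± 0.07, adjusted p = 5.49e-06). Gpam (difference 0.55), Gpd1 (0.52), Elovl6 (0.63) and Mpc1 (0.54) also had a higher value with siNfe2l1. The thermogenic Ucp1 fell with siAtf3 alone but rose with siNfe2l1 (0.89 ± 0.17; difference 1.53 ± 0.23, adjusted p = 0.000144). Among the genes that rose, Trp53inp1 (difference -0.88 ± 0.13), Ogdhl (-0.70), Aldh1a1 (-0.60), Abcg1 (-0.48) and Cdkn1a (-0.35) rose less. Acta1 (-2.93 ± 0.14 with siNfe2l1) and Col3a1 (-1.18 ± 0.03) fell in this background too, and their differences did not pass (adjusted p = 0.657 and 0.651). Atf3 itself was left at a higher level with siNfe2l1 (13.6 to 16.7 CPM) than with siAtf3 alone (9.10 to 11.0 CPM), without overlap, although the difference in its fall was not called (0.36 ± 0.13, adjusted p = 0.146). The part of this residual Atf3 in these differences was not tested, nor was that of the higher Nfe2l1 level with both siRNAs.

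**Figure D5:**
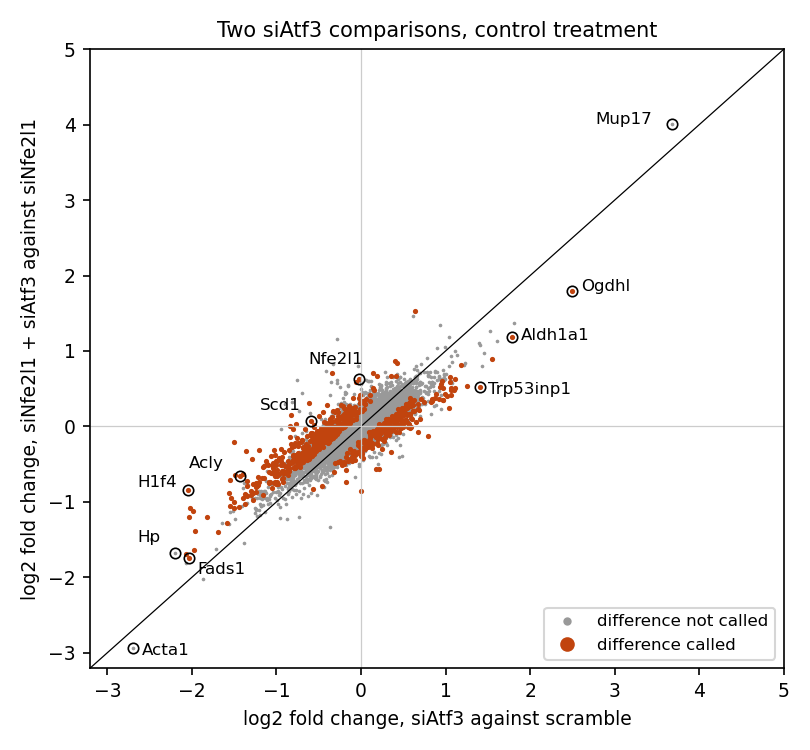
Log2 fold changes of siAtf3 against scramble (x) and of siNfe2l1+siAtf3 against siNfe2l1 (y) for 11415 genes whose log2 CPM averaged 2 or more; red, the 711 genes whose difference was called. The diagonal marks equal effects, and Acly, Scd1, H1f4 and Trp53inp1 lie off it, nearer to 0 on the y axis than on the x axis.

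With cholesterol, siAtf3 was compared with scramble in another 8 libraries. Atf3 fell by 3.28 ± 0.28 there, from a far higher level, and this fall was larger than without cholesterol (difference -1.88 ± 0.41, adjusted p = 0.00357). Of the genes called without cholesterol, 2588 of 3604 lower ones (71.8%) and 2381 of 3618 higher ones (65.8%) were called in the same direction, beside 27.4% and 23% of all genes, and 83 and 173 in the opposite one. Fads1 (-2.45 ± 0.05), Acly (-1.63 ± 0.06), Htra1 (-2.39 ± 0.05) and Aldh1a1 (2.26 ± 0.07) kept their direction, and in Fads1, Htra1 and Aldh1a1 the difference was called (-0.41, -0.42 and 0.47). In cholesterol 8557 genes (50.4%) were called. The test of the difference, which again shares the libraries of the first comparison, called 2605 genes (15.3%), 1551 with the lower value in cholesterol (9.13%) and 1054 with the higher (6.21%). Of the 16 heat shock genes 14 were called lower in cholesterol by this test, beside 9.13% of all genes. Cdkn1a, higher with siAtf3 before loading, was lower after it (-0.27 ± 0.08; difference -0.72, adjusted p = 9.08e-05). Cholesterol raises Atf3 itself, so the level lost differed between both comparisons.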

How the data were processed

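Polyadenylated RNA of 32 libraries was sequenced. The authors deposited 1 table of raw read counts per gene for 56748 genes; fastp, HISAT2 2.0.5, featureCounts 1.5.0-p3 and build GRCm39 are named per the submitters' processing notes, while strand and multi-mapping settings are not given in the sources used here. From these counts, CPM and tests were computed with edgeR 4.0.16 in R 4.3.3: TMM factors over all libraries, genes kept by filterByExpr (minimum count 10, minimum total 15; 16984 genes), and robust quasi-likelihood tests with Benjamini-Hochberg adjustment at 0.05. Comparisons under control treatment were fitted on the 16 control-treatment libraries (12 residual degrees of freedom) and those with cholesterol on all 32 (24). Group and replicate come from the sample titles. Total counts of all libraries ran from 23457384 to 33828418, which limits genes of few counts most. In cholesterol, same-numbered scramble and siAtf3 libraries tended to deviate together (correlations 0.347, 0.218, 0.161 and 0.253 of deviations from the group means). The siAtf3 replicate 3 correlated more with a scramble library of another number (0.215). The numbers may thus pair the libraries there, although nothing in the labels says that they mark a shared batch. Every pair of replicates differed by more than sampling noise (chi-square per degree of freedom 2.752 to 14.53 under control treatment).

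The members, the 47 gene lists and the tests were chosen with earlier results of these data known. Genes were named by rule: Atf3, Nfe2l1, the 15 highest and 15 lowest fold changes among called protein-coding genes averaging 2 or more in log2 CPM, groups not overlapping, up to 5 called members of each list by adjusted p, and a set of watched genes. Some genes under this rule are not reported here. Chosen after their values were seen were Acss2, Adgre1, Aldh1a3, Batf3, C1qa, C1qc, Car3, Ccl11, Ccl4, Ccn2, Cd36, Chac1, Col8a1, Creb3l3, Dgat2, Dlat, Eln, Elovl1, Elovl3, Fabp4, Fads2, Hspa5, Inhba, Lum, Mcat, Mki67, Mpc2, Nupr1, Pck1, Pdgfra, Pdhb, Plin2, Pnpla3, Ppp1r15a, Ptgs2, Slc7a11, Tnc and Vldlr. Alternatives were DESeq2 1.42.0, limma-voom 3.58.1, other scalings, no filter, other sets of libraries, a replicate block and each library left out. Figures were drawn with matplotlib.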

Additional observations from a re-analysis of the deposited data

Results flagged for a closer look

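Among the 169 genes named in the report, each in 2 groups of 4 libraries, 1 library stood far from the other 3 in 18 of 338 cases. Chance alone gives about 1 in 20. The measure is the gap to the nearest library over the range of the group, above Dixon's 95% critical value. Scramble replicate 1 was the library apart for Cfd (1030.3 CPM, 0.897), Ch25h (11.4 CPM, 0.832), Dsn1 (8.62 CPM, 0.846), Pdhb (491 CPM, 0.874) and Per2 (12.2 CPM, 0.834). Scramble replicate 2 was the library apart for Lif (18.7 CPM, 0.887) and Mki67 (36.9 CPM, 0.842). Scramble replicate 4 was the library apart for Bcl2l11 (11.8 CPM, 0.886), Dio2 (16.001 CPM, 0.897), Fbn1 (844 CPM, 0.875) and Manf (95.2 CPM, 0.834). The siAtf3 replicate 1 was the library apart for Adrb3 (325 CPM, 0.842). The siAtf3 replicate 2 was the library apart for Dld (162 CPM, 0.91), Fasn (2130.1 CPM, 0.886) and Scd2 (979 CPM, 0.886). The siAtf3 replicate 3 was the library apart for Cd36 (1462 CPM, 0.843), Ch25h (12.7 CPM, 0.835) and Vldlr (120.2 CPM, 0.863). 

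The effect of siAtf3 differed between backgrounds by the edgeR test of the difference itself for several named genes. The genes listed here are a selection. Other named genes were called in these tests too, such as Slc25a1 with siNfe2l1 (0.47, adjusted p = 0.000283) and Srebf1 by cholesterol (0.76, adjusted p = 0.00495). With siNfe2l1 minus with scramble, under control treatment, the log2 differences with their adjusted p were -0.48 for Abcg1 (5.2e-05), 0.78 for Acly (6.83e-06), -0.60 for Aldh1a1 (0.000336), -0.35 for Cdkn1a (0.000299), 0.63 for Elovl6 (0.000132), 0.55 for Gpam (7.92e-06), 0.52 for Gpd1 (9.76e-06), 1.201 for H1f4 (9.69e-05), 0.54 for Mpc1 (0.00302), 0.65 for Nfe2l1 (5.77e-06), -0.70 for Ogdhl (0.0126), 0.67 for Scd1 (5.49e-06), -0.88 for Trp53inp1 (0.00152) and 1.53 for Ucp1 (0.000144). With cholesterol minus control treatment they were 0.47 for Aldh1a1 (0.00173), -1.88 for Atf3 (0.00357), -0.72 for Cdkn1a (9.08e-05), -0.41 for Fads1 (0.000146) and -0.42 for Htra1 (0.000207). Each group has 4 libraries.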

How the results depend on the processing

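Of 200 recomputed counts and Atf3 values, 190 kept their direction and stayed within 1.5 times. On library totals alone, siAtf3 against scramble gave 6652 genes higher and 2168 lower, siAtf3 added to siNfe2l1 5008 and 1894, siAtf3 in cholesterol 6707 and 2712, and the difference between the siNfe2l1 and scramble backgrounds 515 lower. With no filter on low counts, the difference between cholesterol and control treatment was called lower for 1010 genes. With the fit on all 32 libraries, the difference between backgrounds was called higher for 232 and lower for 96 genes. H2-D1 turned to 0.03 and Ppp1r15a to 0.00 on library totals, which raise all values alike. Of 4716 recomputed values of single genes 4635 kept their call, 60 lost it and 19 gained it. Of 1504 recomputed counts of list members 1405 stayed within 1.5 times and 99 moved further, 46 of them on library totals alone and 18 in the fit on all 32 libraries.

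Leaving out 1 library at a time gave 3273 to 3370 genes higher and 3332 to 3403 lower for siAtf3 against scramble, with Atf3 at -1.45 to -1.36. The same gave 2290 to 2733 and 2712 to 3028 with siNfe2l1, 3582 to 3856 and 4271 to 4642 with cholesterol, 754 to 1295 and 1148 to 1740 for the difference by cholesterol, and 337 to 667 and 188 to 392 for the difference by siNfe2l1. Under control treatment, same-numbered scramble and siAtf3 libraries did not deviate together (correlations -0.068, -0.041, -0.06 and 0.005). With siNfe2l1 the correlations were 0.098, -0.053, 0.054 and 0.461, and replicates 2 and 3 correlated more with another number (0.288 and 0.259). The numbers thus do not pair all libraries under control treatment. In cholesterol they may. There a replicate block kept the calls of Atf3, Acly, Fads1, Htra1, Aldh1a1 and Cdkn1a, and 14 heat shock genes stayed lower by the difference. Of the genes called without cholesterol, 2609 lower and 2395 higher ones then kept their direction, and 88 and 184 went the opposite way. The macrophage and mitochondrial counts in cholesterol were not recomputed with the block. With a replicate block, 3618 genes were higher and 3587 lower and Atf3 was at -1.40. The block gave 2614 and 2968 with siNfe2l1, 3972 and 4737 with cholesterol, 1194 and 1726 for the difference by cholesterol, and 465 and 285 for the difference by siNfe2l1. Depth limits genes of few counts.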
